A study of Mus musculus with 6 samples.

Results

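The genes described here are 8 secreted proteins that act on the extracellular matrix and on clots: the metalloproteases Adamts1, Adamts2, Adamts4, Adamts5 and Adamts9, the plasminogen activators Plau and Plat, and the serpin Serpine2. They were chosen by gene name, and all 8 were found among the 8690 gene names of an RNA sequencing table of mouse aorta. The table compares aortas of aged C57BL/6 mice that were wild type (WT, replicates 2, 4 and 8) with aortas of aged mice of the same strain without Sirt2 (Sirt2-KO, replicates 4, 7 and 8). Each group had 3 mice and no treatment was given in the labels, and the labels do not say how the Sirt2 allele was made or what the mice's exact age or sex was. Sirt2 encodes an NAD-dependent deacetylase, and the comparison asks how its absence changes the aged aorta.

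ADAMTS proteases are secreted zinc enzymes that carry thrombospondin repeats, and they trim large matrix molecules. Adamts1, Adamts4, Adamts5 and Adamts9 cut the proteoglycans versican and aggrecan, which hold water in the vessel wall, while Adamts2 removes the amino-terminal propeptide of fibrillar procollagens before fibres form. Plat (tissue-type) and Plau (urokinase-type) are serine proteases that turn plasminogen into plasmin, the enzyme that dissolves fibrin. Serpine2, also called protease nexin 1, blocks thrombin and both activators.

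The coding sequence of the zinc-binding motif is shown for the 5 metalloproteases because their transcripts have to be told apart by their reads. Each run was read from a GENCODE M21 transcript, 5′ to 3′ on the coding strand, and the capitals mark the codons of the zinc-binding histidines and the catalytic glutamate.
Adamts1: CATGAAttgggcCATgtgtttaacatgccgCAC
Adamts2: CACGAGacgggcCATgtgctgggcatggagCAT
Adamts4: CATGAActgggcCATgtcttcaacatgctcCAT
Adamts5: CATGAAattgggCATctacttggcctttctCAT
Adamts9: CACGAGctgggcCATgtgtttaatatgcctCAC
Over these 33 bases the 10 pairs were identical at 54.5% to 84.8% of positions, with Adamts1 and Adamts9 the closest pair and Adamts5 and Adamts9 the most distant. The same was done around the active-site serine of both activators, with the serine codon in capitals.
Plau: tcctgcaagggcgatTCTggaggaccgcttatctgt
Plat: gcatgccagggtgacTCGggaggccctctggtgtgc
Here 24 of 36 bases were the same (66.7%).

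No run of 36 bases was shared between the transcripts of any 2 of the 8 genes. The Adamts1, Adamts5, Plat and Serpine2 transcripts shared no such run with any other GENCODE gene. Shared runs made up 2.10% of the Adamts2 transcript, 0.564% of Plau, 3.45% of Adamts4 and 5.90% of Adamts9. For Adamts9 the largest part (332 of 471) lies opposite Gm15737. The sources used here do not say whether counting used strand, so a part of the Adamts4 and Adamts9 values may belong to genes that overlap them.

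Among the 8 genes, Adamts1 and Adamts5 are neighbours on chromosome 16, and Adamts4 and Serpine2 share chromosome 1. The other members lie on chromosomes 11 (Adamts2), 6 (Adamts9), 14 (Plau) and 8 (Plat). RefSeq promoters (250 bases before to 50 after the start, build GRCm38.p6) were matched for 4 of the 8 genes. Those of Adamts2 and Adamts1 are printed because these genes exchanged the first place among the ADAMTS transcripts, as their values show. Capitals mark the motifs that were searched on both strands: TATAAA (the TATA box), CCAAT (the CCAAT box), GGGCGG (the GC box), TGANTCA (AP-1), CACGTG (an E-box) and TCACNCCAC (a sterol response element).
Adamts2, chr11:50601835-50602134, plus strand: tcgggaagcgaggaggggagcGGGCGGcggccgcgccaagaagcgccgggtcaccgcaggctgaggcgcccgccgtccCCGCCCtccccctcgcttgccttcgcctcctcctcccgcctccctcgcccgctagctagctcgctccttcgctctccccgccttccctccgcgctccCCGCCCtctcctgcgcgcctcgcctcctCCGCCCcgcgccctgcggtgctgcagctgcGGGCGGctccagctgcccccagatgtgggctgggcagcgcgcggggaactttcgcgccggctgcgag
Adamts1, chr16:85803064-85803363, minus strand: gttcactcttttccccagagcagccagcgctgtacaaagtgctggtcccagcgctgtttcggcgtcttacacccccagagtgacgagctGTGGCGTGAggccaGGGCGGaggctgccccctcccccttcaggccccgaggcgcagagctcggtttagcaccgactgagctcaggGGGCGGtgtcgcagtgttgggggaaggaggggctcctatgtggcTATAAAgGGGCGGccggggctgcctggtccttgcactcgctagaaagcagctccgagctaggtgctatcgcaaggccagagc
The Adamts2 window held 5 GC boxes and none of the other motifs, at 77.3% G and C with 41 CG pairs. The Adamts1 window held 3 GC boxes, 1 TATAAA and 1 sterol response element, at 64.7% G and C with 18 CG pairs. None of the matches overlapped. Of the 32851 promoters in the table, 35.7% held a GC box, 13.6% a TATAAA, 37.4% a CCAAT, 7.8% the AP-1 motif, 7.2% the E-box and 1.2% the sterol response element. A match describes these letters and is not a measured binding site.

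Values were deposited as FPKM, a length-scaled and library-scaled fragment level, and a gene with several rows is given as their sum. Counts were not used here, so depth is unknown. Sirt2 was low in every Sirt2-KO aorta (2.23 to 3.32 FPKM against 26.5 to 49.2 FPKM in WT). Smooth muscle, endothelial and adventitial fibroblast markers were present in all 6 aortas, with 8 of 8, 10 of 10 and 10 of 10 markers in the table and smooth muscle the most abundant. Sirt2-KO replicate 4 lay between the groups on the first principal component (5.70, while the remaining Sirt2-KO aortas reached 34.8 and 41.5 and the WT aortas ran from -39.5 to -14.0). WT replicate 4 held heart muscle transcripts, with 504 FPKM summed over 7 markers against 58.9 to 69.8 FPKM in the other 5 aortas. It also had the highest endothelial sum, 600 FPKM against 319 to 408 FPKM.

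Serpine2 was the most abundant of the 8 transcripts in every aorta, and Adamts4 the least. In WT the order of mean FPKM was Serpine2 (326), Adamts1 (55.5), Plat (40.9), Adamts2 (23.6), Adamts5 (7.75), Adamts9 (6.85), Plau (5.02) and Adamts4 (1.32). The ranges of Adamts1 and Plat overlapped in WT, as did those of Adamts5 with Adamts9 and of Adamts9 with Plau, so these neighbours did not differ beyond their spread. In Sirt2-KO the order was Serpine2 (247), Adamts2 (58.3), Adamts1 (30.8), Plat (28.1), Adamts5 (10.5), Plau (8.43), Adamts9 (4.89) and Adamts4 (1.57). The ranges of Adamts1 and Plat again overlapped there, although Adamts1 was higher within each Sirt2-KO aorta. Those of Adamts5 and Plau overlapped too. Serpine2 and the next gene did not overlap in either group, nor did Plat and Adamts2 in WT or Adamts2 and Adamts1 in Sirt2-KO.

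**Figure D1:**
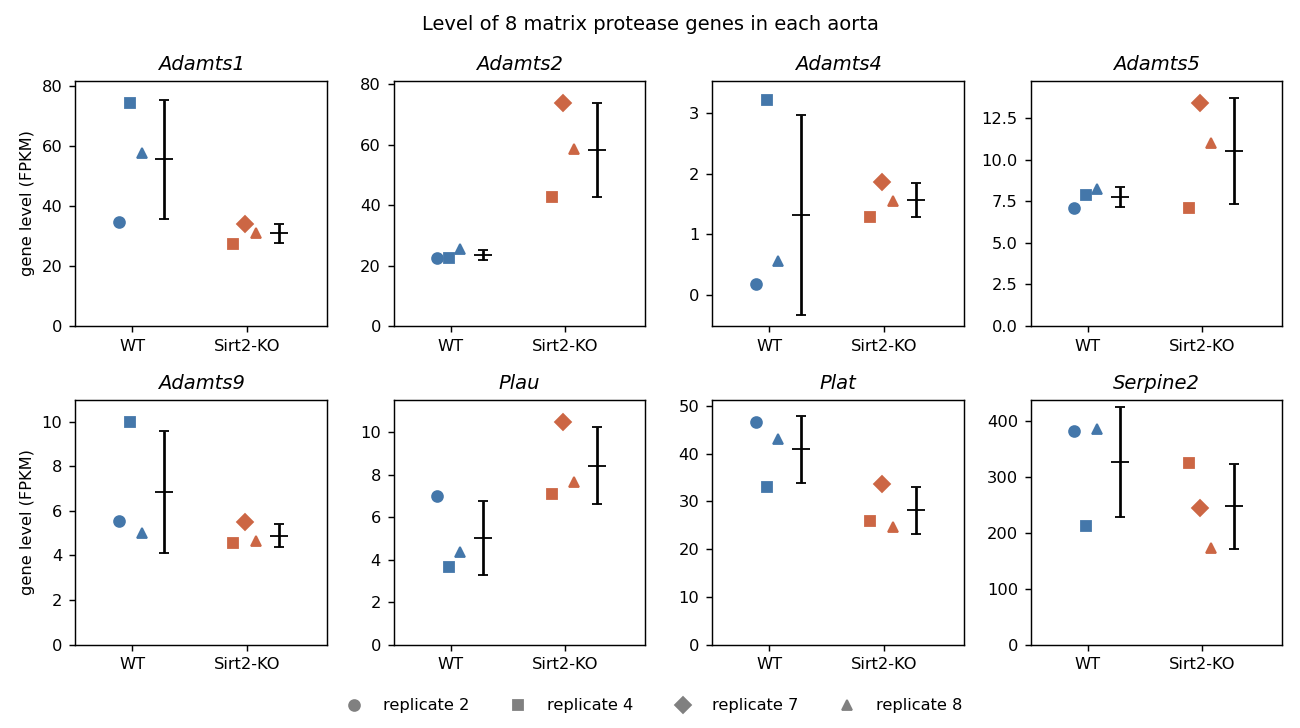
Gene level in FPKM (vertical axes, each starting at or just below 0) of the 8 genes in each aorta, with WT at the left and Sirt2-KO at the right of each panel. Symbols stand for the replicate number, and the black bar with whiskers gives the mean and SD over 3 mice. Adamts2 lies at 22.5 to 25.5 FPKM in WT and at 42.7 to 73.7 FPKM in Sirt2-KO, while the groups overlap for Adamts4, Adamts5, Adamts9, Plat and Serpine2.

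One of the 8 genes, Adamts2, rose in Sirt2-KO by the test across all 8605 tested genes (limma, two-sided, Benjamini-Hochberg adjusted p under 0.05), and 7 did not pass. Over all tested genes 2.91% passed in either direction and 2.29% passed as higher. None of the 8 passed as lower, where 0.616% of all tested genes did. At an unadjusted p under 0.05 stood 4 of the 8 (Adamts1, Adamts2, Plau and Plat), against 24.8% of all tested genes. The values of the groups did not overlap for 3 of the 8, against 33.3% of all tested genes. These were Adamts2 and Plau, higher in Sirt2-KO (16.0% of all genes), and Adamts1, lower (17.3%). The median log2 difference of the 8 was -0.00, against -0.08 over all tested genes. With 3 mice against 3, the exact permutation test cannot go below 0.1 two-sided.

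Adamts2, the procollagen N-proteinase, stood at 22.5, 22.6 and 25.5 FPKM in WT replicates 2, 4 and 8. In Sirt2-KO replicates 4, 7 and 8 it stood at 42.7, 73.7 and 58.6 FPKM. The 3 WT aortas were nearly equal and every Sirt2-KO aorta lay above them, with replicate 4 the lowest of its group. The mean went from 23.6 ± 1.71 to 58.3 ± 15.5 FPKM (SD, n = 3 each), a 2.48-fold rise. The log2(FPKM + 1) difference was 1.24 (SE 0.200, 95% interval 0.77 to 1.71, limma adjusted p = 0.0285). The call ended without WT replicate 2 (adjusted p = 0.0985), WT replicate 4 (0.0522), WT replicate 8 (0.0556), Sirt2-KO replicate 7 (0.107) or Sirt2-KO replicate 8 (0.135), while the difference stayed between 1.06 and 1.44 in these fits and in the fit without Sirt2-KO replicate 4.

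Over all tested genes 2.29% rose and 0.616% fell by limma, and 24.8% had an unadjusted p under 0.05. Of the 9 tested procollagen and procollagen-processing genes, 2 rose and none fell by limma (5 at an unadjusted p under 0.05). Both are enhancers of the enzyme that removes the carboxy-terminal propeptide. Pcolce rose from a mean of 50.2 ± 6.11 FPKM in WT to 174 ± 52.8 FPKM (a log2 difference of 1.73, limma adjusted p = 0.0228). With only the highest of its 8 rows the difference was 0.56, short of the threshold (adjusted p = 0.368). Pcolce2 rose from a mean of 7.0 ± 2.40 FPKM in WT to 28.9 ± 9.51 FPKM (a log2 difference of 1.88, adjusted p = 0.0296). Bmp1, the carboxy-terminal proteinase itself, differed by 0.36 (SE 0.154, adjusted p = 0.202). The substrates of Adamts2 did not pass. Col1a1 was at 215, 107 and 213 FPKM in the WT aortas against 312, 427 and 358 FPKM in the Sirt2-KO aortas, higher in every Sirt2-KO aorta (log2 difference 1.09, adjusted p = 0.0905). Col3a1 differed by 0.55 (95% interval -0.19 to 1.30, adjusted p = 0.303), and its groups overlapped. Of the other procollagen genes tested, Col1a2 (0.80, limma adjusted p = 0.158) and Col5a3 (0.89, adjusted p = 0.104) did not pass. Both were higher in every Sirt2-KO aorta, as were 16.0% of all tested genes. Col5a1 (-0.20) and Col5a2 (-0.13) had overlapping groups.

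The summed level of adventitial fibroblast markers was higher in Sirt2-KO, as Adamts2 was. All 10 of 10 markers in the list were in the table and none was at 0. Their summed level was 951 to 1524 FPKM in WT and 2241 to 4191 FPKM in Sirt2-KO, 4 of them passed as higher, and the median log2 difference was 1.50. Within WT the order was not shared: replicate 4 had the highest sum and replicate 8 the highest Adamts2 value. Some other cell type markers differed between the groups too. White adipocyte markers (8 of 9 in the table) summed to 635 to 2421 FPKM in WT and 4508 to 6768 FPKM in Sirt2-KO, with 2 called higher and a median of 2.32. Mast cell markers (4 of 5) had a median of 1.56 with 2 called higher, and macrophage markers (9 of 9) a median of 1.49 with 1 called higher. Schwann cell and nerve markers (8 of 8) had a median of -1.30 with 2 called lower. Heart muscle markers (7 of 7) had a median of -1.35 with 1 called lower, and their sums overlapped. B and plasma cell markers (4 of 6) had a median of 0.18 with 1 called higher. Brown adipocyte (0.19), smooth muscle (-0.40) and endothelial (-0.31) markers had none called. Of all tested genes 2.29% were called higher and 0.616% lower. The part of any of these cell types in the Adamts2 values was not tested. In bulk tissue, a change in the number of cells of a type and a change in RNA per cell cannot be told apart. Relative to the geometric mean of the adventitial fibroblast markers within the same aorta, Adamts2 was not higher in Sirt2-KO. All 10 of these markers had a positive log2 difference and were listed with earlier results of these data known. The ratio therefore does not test their part in the Adamts2 values. The ratio was 0.466, 0.379 and 0.418 in WT and 0.360, 0.337 and 0.313 in Sirt2-KO. Each Sirt2-KO ratio lay below each WT ratio (log2 difference -0.32, exact two-sided permutation p = 0.1, adjusted over 6 ratios p = 0.2). Relative to Col1a1 the groups overlapped, at 0.105, 0.211 and 0.12 in WT and 0.137, 0.173 and 0.163 in Sirt2-KO (exact permutation p = 0.6, adjusted 0.72).

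Adamts1, an enzyme that cuts versican and restrains vessel growth, was at 34.7, 74.2 and 57.7 FPKM in the WT aortas against 27.4, 34.1 and 31.0 FPKM in the Sirt2-KO aortas. Every Sirt2-KO value lay below every WT value, but WT replicate 2 exceeded Sirt2-KO replicate 7 only narrowly, and WT replicate 4 was the highest. The means were 55.5 ± 19.9 and 30.8 ± 3.32 FPKM (1.80-fold higher in WT). The log2 difference of -0.77 (SE 0.266, 95% interval -1.40 to -0.14) did not pass (limma adjusted p = 0.146). It was -0.53 without WT replicate 4, the aorta with heart muscle transcripts, and -1.07 without WT replicate 2. The part of the heart muscle and endothelial transcripts in the value of WT replicate 4 was not tested.

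Adamts5, the main aggrecanase of mouse cartilage and a neighbour of Adamts1, did not share its direction. It was at 7.10, 7.90 and 8.25 FPKM in the WT aortas against 7.07, 13.4 and 11.01 FPKM in the Sirt2-KO aortas. Sirt2-KO replicates 7 and 8 were above all WT aortas, and replicate 4 was just below them. The log2 difference was 0.36 (SE 0.223, 95% interval -0.17 to 0.88, limma adjusted p = 0.343). Leaving out Sirt2-KO replicate 7 gave 0.17, and leaving out Sirt2-KO replicate 4 gave 0.59. Within one aorta Adamts1 exceeded Adamts5 by 4.89, 9.40 and 7.0 times in WT and by 3.88, 2.55 and 2.82 times in Sirt2-KO. The ratio was lower in all 3 Sirt2-KO aortas (log2 difference -1.18, exact two-sided permutation p = 0.1, adjusted p = 0.2).

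Adamts9, which also cuts versican and is made by endothelial cells among others, had 2 rows in the table. Their sum was 5.54, 9.997 and 5.02 FPKM in the WT aortas against 4.56, 5.48 and 4.64 FPKM in the Sirt2-KO aortas. WT replicate 4 again stood highest, and the groups overlapped (log2 difference -0.36, 95% interval -0.97 to 0.24, limma adjusted p = 0.394). Without WT replicate 4 the difference was -0.09. The higher row, at 8.91 FPKM, carried the excess of that aorta, and the lower row was highest in Sirt2-KO replicate 7 at 3.28 FPKM.

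Adamts4, an aggrecanase that inflammatory signals can induce, was the least abundant member. It was at 0.178, 3.20 and 0.565 FPKM in the WT aortas against 1.29, 1.85 and 1.56 FPKM in the Sirt2-KO aortas. The lowest and the highest values were both in WT, and the log2 difference of 0.37 had a 95% interval from -0.97 to 1.71 (limma adjusted p = 0.687). Leaving out WT replicate 4 gave 0.91, while leaving out WT replicate 8 gave 0.20 and leaving out WT replicate 2 gave -0.00. The smallest variance of any row in the table was 1.00003. The Adamts4 row had a variance of 1.13, and of 0.487 with WT replicate 4 left out. Whether rows were filtered on variance is not stated in the sources used here. Like Adamts1 and Adamts9, it was highest in WT replicate 4.

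Transcripts for the core proteins of versican and aggrecan were lower in every Sirt2-KO aorta than in any WT aorta. The same held for 17.3% of all tested genes. Vcan, which encodes versican, was at 14.5, 21.7 and 18.1 FPKM in the WT aortas against 10.9, 10.1 and 5.32 FPKM in the Sirt2-KO aortas (log2 difference -1.01, limma adjusted p = 0.0934). Acan, which encodes aggrecan, was at 12.6, 6.29 and 9.30 FPKM in the WT aortas against 5.94, 3.93 and 1.67 FPKM in the Sirt2-KO aortas (log2 difference -1.16, adjusted p = 0.139). Neither passed. Cd44, the hyaluronan receptor, overlapped between the groups (log2 difference -0.05, adjusted p = 0.926). These were the 3 tested genes of 12 in that list. An unadjusted p under 0.05 was found for 2 of them, against 24.8% of all tested genes.

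Of 19 ADAMTS protease genes looked for, 8 were in the table, and the other 11 were not analysed here. Beyond the members these were Adamts8, Adamts10 and Adamts15, and none of the 3 passed by limma (1 at an unadjusted p under 0.05). Adamts15, a further versican-cutting enzyme, had the smallest p. It was at 15.2, 24.3 and 20.0 FPKM in the WT aortas against 9.44, 11.5 and 11.1 FPKM in the Sirt2-KO aortas, without overlap (log2 difference -0.81, SE 0.184, adjusted p = 0.0670). Adamts8 differed by -0.38 (adjusted p = 0.269) and Adamts10 by -0.36 (adjusted p = 0.361), each with overlapping groups.

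The summed level of the 8 ADAMTS proteases overlapped between the groups, at 117, 169 and 146 FPKM in the WT aortas against 114, 166 and 138 FPKM in the Sirt2-KO aortas, while its make-up differed. Adamts1 held 29.6%, 43.9% and 39.7% of the sum in WT and 24.2%, 20.5% and 22.5% in Sirt2-KO. Adamts2 held 19.2%, 13.4% and 17.5% in WT and 37.6%, 44.4% and 42.6% in Sirt2-KO. Adamts15 went from 13.0% to 14.4% of the sum in WT to between 6.95% and 8.31% in Sirt2-KO. Adamts1 was the leading ADAMTS transcript in all 3 WT aortas and Adamts2 in all 3 Sirt2-KO aortas. The ratio of Adamts2 to Adamts1 was 0.649, 0.305 and 0.442 in WT and 1.56, 2.17 and 1.89 in Sirt2-KO. These shares were looked at after the values were seen and were not tested.

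**Figure D2:**
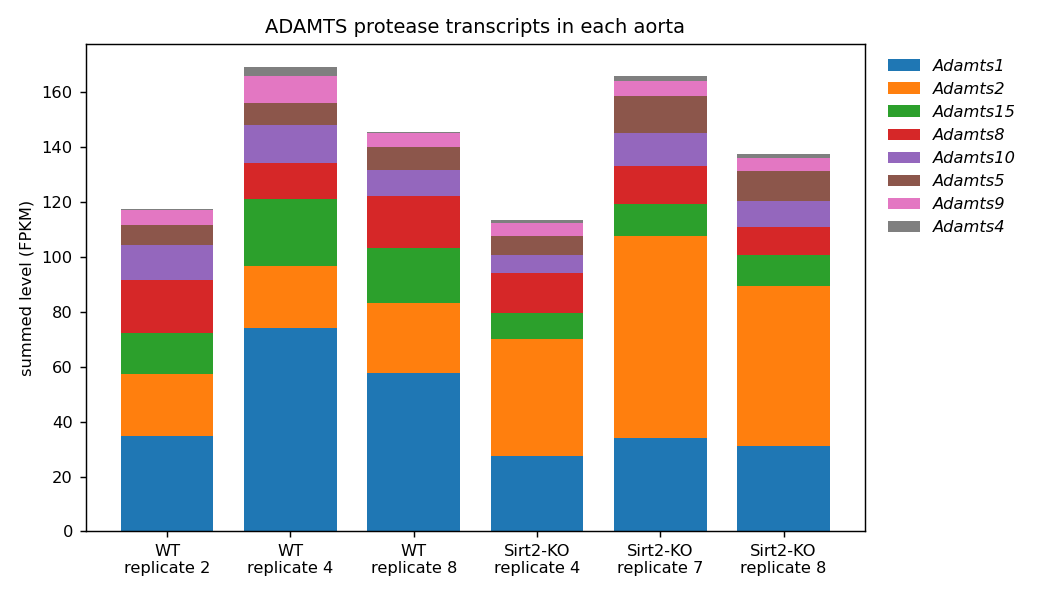
Summed FPKM (vertical axis, starting at 0) of the 8 ADAMTS proteases in each aorta (bars), stacked by gene. Total height overlaps between the groups, while Adamts1 (bottom) is the largest segment in the 3 WT aortas and Adamts2 (second from bottom) in the 3 Sirt2-KO aortas.

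The ADAMTS-like genes encode secreted proteins with the same ancillary repeats and no protease domain. Of 6 tested, none passed by limma and 3 had an unadjusted p under 0.05, against 24.8% of all tested genes. Thsd4, also called Adamtsl6, a binding partner of fibrillin, was lower in every Sirt2-KO aorta, at 73.9, 57.4 and 86.1 FPKM in the WT aortas against 48.4, 39.6 and 20.0 FPKM in the Sirt2-KO aortas (log2 difference -1.06, adjusted p = 0.118). Adamtsl4 was higher in each, from 5.43 ± 0.765 to 8.98 ± 1.78 FPKM (log2 difference 0.62, adjusted p = 0.118). Adamtsl2 differed by 0.91 with overlapping groups (adjusted p = 0.191).

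The plasminogen activators differed in opposite directions, and neither passed. Plau was at 7.01, 3.67 and 4.37 FPKM in the WT aortas against 7.11, 10.5 and 7.67 FPKM in the Sirt2-KO aortas. The groups did not overlap, but WT replicate 2 and Sirt2-KO replicate 4 were nearly equal. The log2 difference was 0.67 (SE 0.250, 95% interval 0.08 to 1.26, limma adjusted p = 0.165). Macrophage markers were higher in Sirt2-KO as well: 9 of 9 were in the table, with sums of 82.2 to 202 FPKM in WT and 251 to 429 FPKM in Sirt2-KO, none at 0. Within WT the order was not shared: replicate 4 had the lowest Plau value and the highest macrophage sum. Fibroblast markers, given above, were also higher, and the part of either in the Plau values was not tested.

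Plat was at 46.6, 33.1 and 42.9 FPKM in the WT aortas against 25.9, 33.7 and 24.7 FPKM in the Sirt2-KO aortas. Sirt2-KO replicate 7 lay just above WT replicate 4, and the other values were apart. The log2 difference was -0.52 (SE 0.178, 95% interval -0.94 to -0.10, limma adjusted p = 0.141). Endothelial cells are a known source of Plat. Endothelial markers summed to 365 to 600 FPKM in WT and 319 to 361 FPKM in Sirt2-KO, none of the 10 passed by limma (3 at an unadjusted p under 0.05), and their median log2 difference was -0.31. Within WT, replicate 4 had the highest endothelial sum and the lowest Plat value, so the order was not shared. The part of the endothelial transcripts in the Plat values was not tested.

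The ratio of Plat to Plau did not overlap between the groups. It combines the opposite differences of both genes given above, so it is not a separate result. Plat exceeded Plau by 6.66, 9.01 and 9.83 times in WT replicates 2, 4 and 8, and by 3.65, 3.21 and 3.22 times in Sirt2-KO replicates 4, 7 and 8. The lowest WT ratio was well above the highest Sirt2-KO ratio, and the means were 8.50 ± 1.65 and 3.36 ± 0.249 (SD, n = 3 each). The log2 difference was -1.32 (exact two-sided permutation p = 0.1, the smallest possible, adjusted p = 0.2 over 6 ratios). The ratio does not depend on scaling between aortas. The ratio of summed activators to Serpine2 overlapped, at 0.141, 0.173 and 0.123 in WT and 0.102, 0.181 and 0.187 in Sirt2-KO (exact permutation p = 0.8). Adamts5 relative to its inhibitor Timp3 overlapped as well, at 0.0295, 0.0367 and 0.0311 in WT and 0.0287, 0.0468 and 0.0457 in Sirt2-KO (exact permutation p = 0.4, adjusted 0.6).

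**Figure D3:**
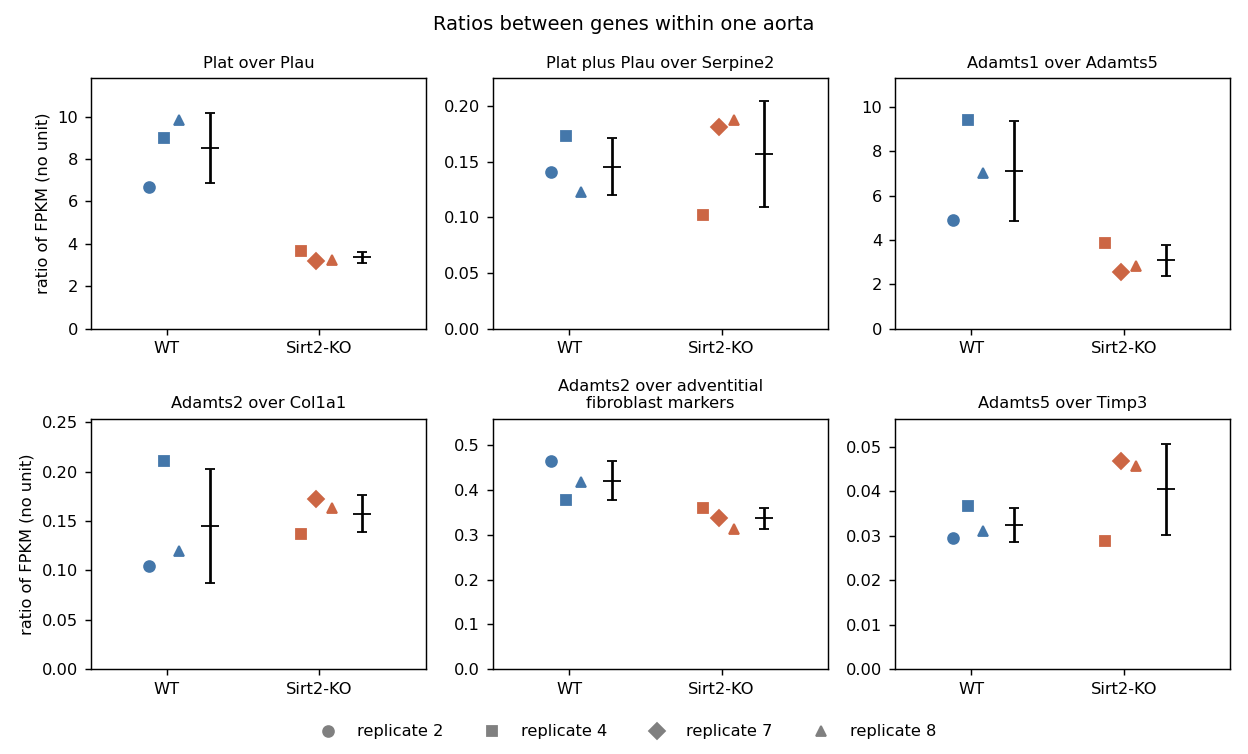
Ratio of FPKM values within one aorta (vertical axes, no unit, starting at 0) for the 6 ratios tested, WT at the left and Sirt2-KO at the right of each panel, with symbols for the replicate number and the mean and SD in black. Plat over Plau lies at 6.66 to 9.83 in WT and 3.21 to 3.65 in Sirt2-KO.

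Serpine2 was at 381, 212 and 385 FPKM in the WT aortas against 324, 244 and 173 FPKM in the Sirt2-KO aortas. The groups overlapped, with WT replicate 4 among the lowest (log2 difference -0.40, SE 0.311, 95% interval -1.13 to 0.34, limma adjusted p = 0.440). It did not pass with any aorta left out. The difference was -0.68 without WT replicate 4 and -0.61 without Sirt2-KO replicate 4, but -0.26 without WT replicate 2, -0.25 without WT replicate 8 and -0.16 without Sirt2-KO replicate 8. Smooth muscle markers followed the same order of low and high aortas, with sums of 14851, 8924 and 16795 FPKM in the WT aortas against 13909, 9768 and 7616 FPKM in the Sirt2-KO aortas. The part of smooth muscle content in the Serpine2 values was not tested.

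Of 8 tested partners in the plasminogen system none passed by limma. At an unadjusted p under 0.05 stood 3 of them, against 24.8% of all tested genes. The neuroserpin gene Serpini1, an inhibitor of Plat, was lower in every Sirt2-KO aorta, from 19.3 ± 2.81 to 9.50 ± 5.37 FPKM (log2 difference -1.07, adjusted p = 0.126). S100a10, which together with annexin A2 holds plasminogen and Plat at the cell surface, was at 110 ± 21.4 and 153 ± 11.8 FPKM (log2 difference 0.48, adjusted p = 0.141). Plaur, the receptor that holds Plau at the cell surface, differed by -0.33 with overlapping groups (adjusted p = 0.263). Lrp1, the receptor that clears protease-serpin complexes, differed by 0.23 (adjusted p = 0.375). Plasminogen itself, Plg, is made mainly by the liver and was not analysed here.

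On the thrombin side of Serpine2, none of 5 tested genes passed by limma and 1 had an unadjusted p under 0.05. That was F3, tissue factor, which starts coagulation, at 35.8, 29.4 and 38.2 FPKM in the WT aortas against 46.3, 107 and 89.3 FPKM in the Sirt2-KO aortas (log2 difference 1.13, adjusted p = 0.0920). Thrombomodulin, Thbd, differed by 0.32 (adjusted p = 0.394). Tfpi, the inhibitor of tissue factor, was at 1.45 to 2.63 FPKM in WT, while Sirt2-KO replicate 7 had 1.66 FPKM and the remaining Sirt2-KO aortas were listed at 0 (adjusted p = 0.287). Among 7 other serpins tested, Serpinf1, the gene of pigment epithelium-derived factor, rose from a mean of 55.8 ± 8.82 FPKM in WT to 187 ± 67.9 FPKM (a log2 difference of 1.66, adjusted p = 0.0376). The complement inhibitor Serping1 was higher in every Sirt2-KO aorta (log2 difference 1.05, adjusted p = 0.0767), and the collagen chaperone Serpinh1 differed by 0.42 (adjusted p = 0.279).

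Among 14 tested inhibitors, cofactors and activators of ADAMTS proteases, 3 rose and none fell by limma (5 at an unadjusted p under 0.05). Over all tested genes these shares were 2.29%, 0.616% and 24.8%. Pcsk6, a proprotein convertase of the furin family, rose from a mean of 7.98 ± 0.303 FPKM in WT to 25.6 ± 6.51 FPKM (a log2 difference of 1.53, adjusted p = 0.0182). Furin differed by 0.03 (SE 0.0984, 95% interval -0.20 to 0.27). Fbln1, fibulin 1, a cofactor of Adamts1, rose from a mean of 35.2 ± 8.05 FPKM in WT to 111 ± 37.8 FPKM (a log2 difference of 1.60, adjusted p = 0.0370). Comp, a cartilage matrix protein that ADAMTS enzymes can bind, rose from a mean of 22.2 ± 3.54 FPKM in WT to 73.6 ± 19.1 FPKM (a log2 difference of 1.66, adjusted p = 0.0210). Timp3, the tissue inhibitor that blocks Adamts4 and Adamts5, differed by 0.10 (SE 0.140, 95% interval -0.23 to 0.43, adjusted p = 0.659). Timp1 (log2 difference 0.85, limma adjusted p = 0.0894) and Timp2 (0.74, 0.0567) did not pass. Both were higher in every Sirt2-KO aorta, as were 16.0% of all tested genes. Timp4 differed by -0.13 with overlapping groups.

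Over the 8 partner lists together, 55 of 97 genes were tested, 6 rose and none fell by limma, against 2.29% and 0.616% of all genes. Their median log2 difference was 0.03. The counts at an unadjusted p under 0.05 given for each list stand beside 24.8% of all tested genes. All 6 (Pcolce, Pcolce2, Serpinf1, Pcsk6, Fbln1 and Comp) missed the threshold when WT replicate 2, Sirt2-KO replicate 7 or Sirt2-KO replicate 8 was left out, with adjusted p between 0.0669 and 0.166. Pcolce2 also missed it without WT replicate 4 (0.0511), Fbln1 without WT replicate 8 (0.0851) or with no trend in the spread (0.0528), and Serpinf1 without WT replicate 4 (0.0637) or WT replicate 8 (0.0623). Serpinf1 further missed it with median-of-ratios scaling (0.0501), quantile normalization (0.0549), no trend (0.0536) or the highest row (0.0573). As with Adamts2, the fibroblast marker sums were higher in Sirt2-KO, as these genes were. Within WT, replicate 4 had the highest sum but the lowest Pcolce (43.1 FPKM), Pcolce2 (5.36 FPKM) and Comp (18.2 FPKM) values. Fbln1 was highest in that aorta (44.0 FPKM). The part of the fibroblast transcripts in the result was not tested.

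**Figure D4:**
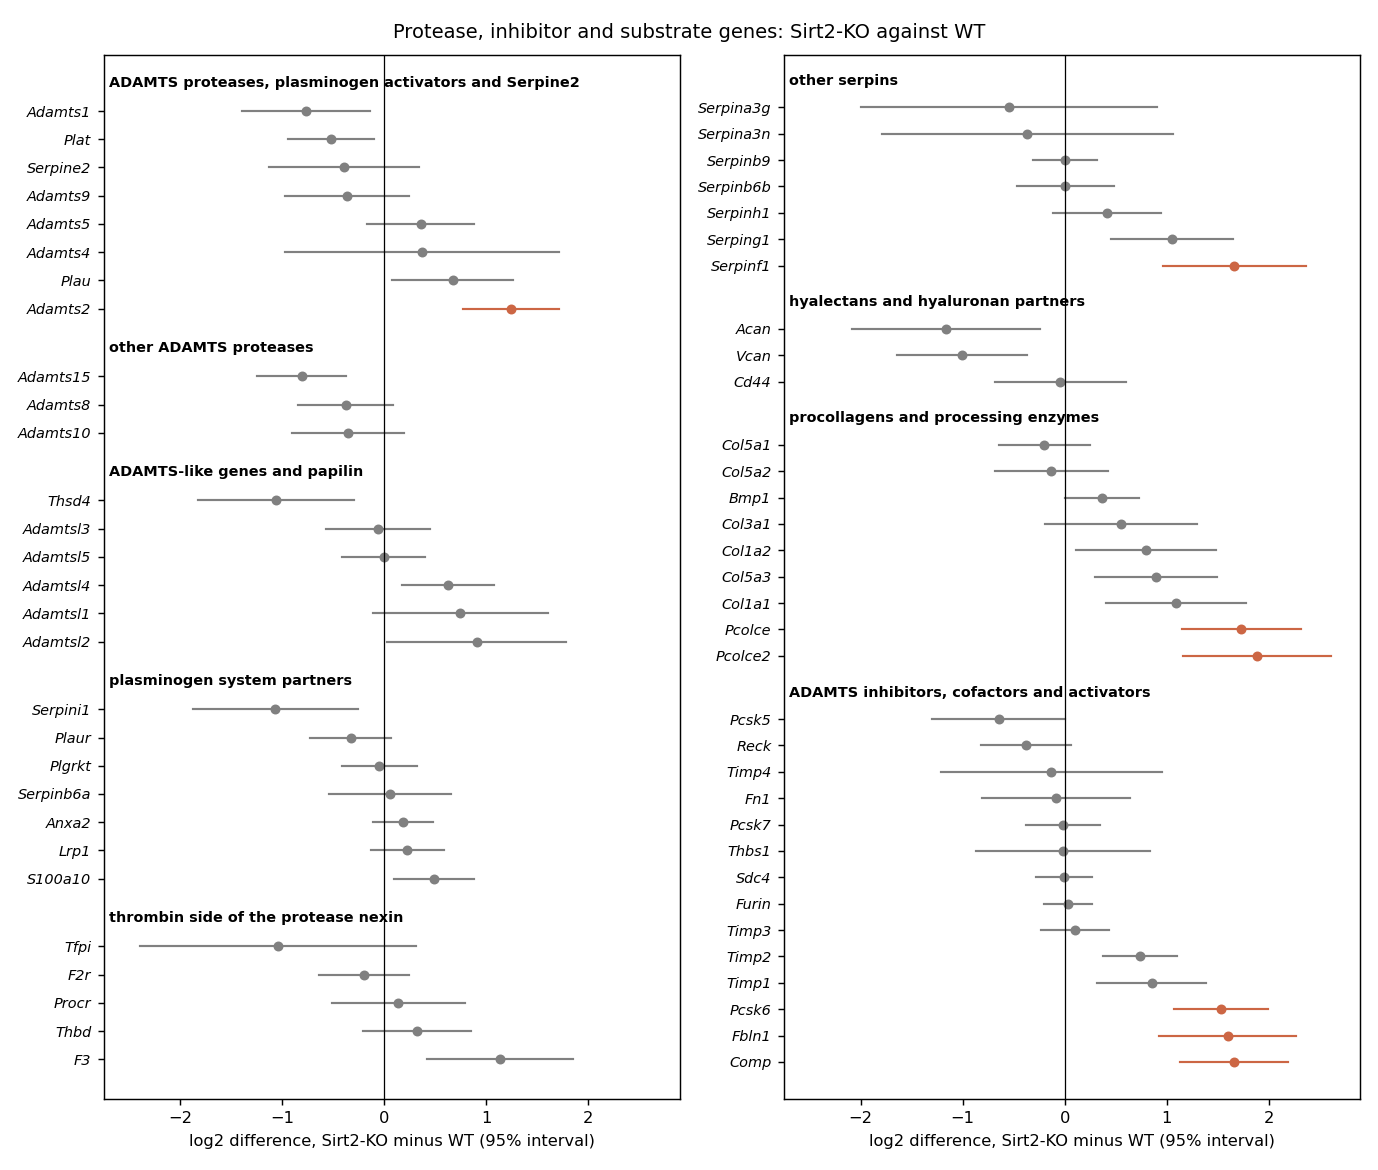
Log2(FPKM + 1) difference of Sirt2-KO minus WT (horizontal axis, point) with its 95% interval (line) for the 8 genes and the tested partners shown, grouped by list. Orange marks the 7 genes that passed an adjusted p of 0.05 in limma, Adamts2 among them, and all of these lie to the right of 0.

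By Pearson correlation of log2(FPKM + 1) over the 6 aortas, the genes most like Adamts2 were Sfrp2 (0.998), Medag (0.998) and Sfrp4 (0.997). Like Adamts2, each of these was lower in every WT aorta than in any Sirt2-KO aorta and peaked in Sirt2-KO replicate 7, where Sfrp2 reached 281 FPKM. The genes most like Adamts1 were Azi2 (0.994), Peli1 (0.992) and Rpl39-ps (0.992). Those most like Adamts9 were Mmrn2 (0.995), Gimap4 (0.993) and Igkv6-25 (0.992), and all were highest in WT replicate 4. Serpine2 was most like Plod2 (0.995), Bnip2 (0.995) and Ino80e (0.994), and Plat most like Cav2 (0.988), Slc12a4 (0.982) and Ptbp1 (0.980). Adamts5 was most like C1qtnf1 (0.992), Med16 (0.989) and Sp110 (0.989). Plau was most like Fam109a (0.979), Pigk (0.974) and Olfml3 (0.967), and Adamts4 most like Cacul1 (0.989), Eps15 (0.982) and Wbp1l (0.981). Each is the best match among 8605 genes over 6 aortas that share their group and content of cells, and no test was made.

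Among the members themselves, the correlation was highest between Adamts2 and Adamts5 (0.82) and between Adamts2 and Plau (0.81), and lowest between Adamts1 and Plau (-0.86). The values of one aorta share a library, so these figures describe the 6 aortas only.

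**Figure D5:**
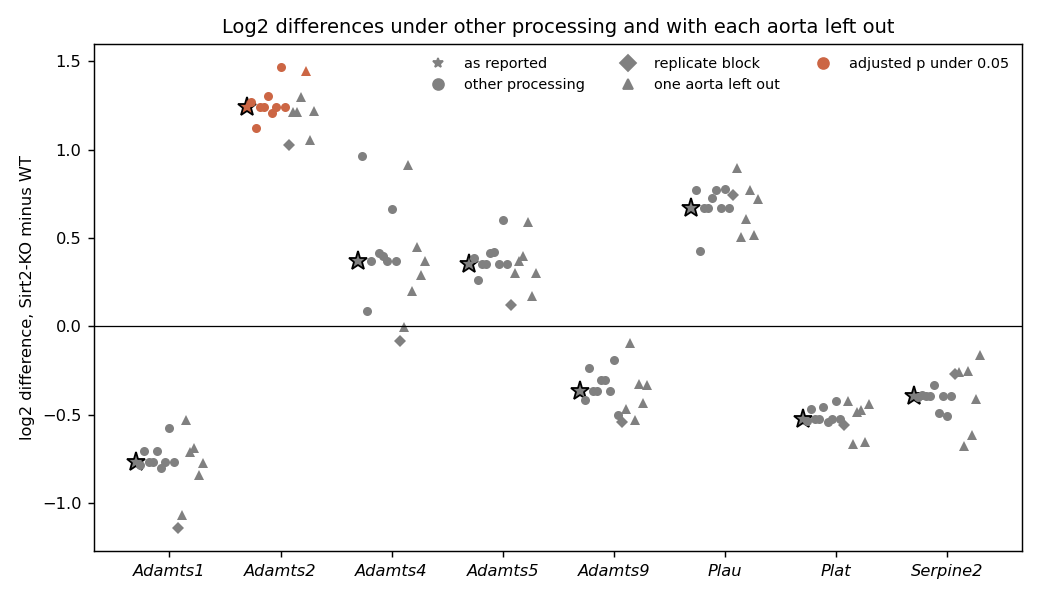
Log2(FPKM + 1) difference of Sirt2-KO minus WT (vertical axis) of each gene as reported (star), under other processing (circles), with the replicate number as a block (diamonds) and with 1 aorta left out (triangles). Orange marks an adjusted p under 0.05, reached by Adamts2 alone. Adamts4 crosses 0, and the other 7 genes keep their side.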

How the data were processed

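RNA sequencing of 6 aortas was used, and the series' design gives 3 mice per group. The authors deposited FPKM values, per the file headers, in 14083 rows. Of tools and builds, the submitters' processing notes give Bowtie 0.12.2 and mm9 without their role. The sources used here give no quantifier, annotation, use of strand or row filter, and every row has a variance of at least 1.00003 over the 6 samples. Date-like names (39 rows) were dropped, and rows of one name were summed. Groups were compared with limma 3.58.1 (R 4.3.3, eBayes allowing for a trend) on log2(FPKM + 1). The 8605 genes whose mean reached 1 FPKM were tested two-sided, with Benjamini-Hochberg adjustment and a threshold of 0.05. The added 1 understates the change of low genes. Intervals are limma's 95% intervals. Within-aorta ratios were tested with an exact permutation test. No pair of samples held identical values. The steps were tested on simulated data. Alternatives covered pseudocounts, filters, scalings, sample weights, the replicate block and each aorta left out.

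The members and lists were chosen with earlier results of these data known. Genes named are the members, Sirt2, every called gene of the partner lists, otherwise the 3 of smallest p in a list, fixed main partners, and the 3 genes most like each member. Genes named besides (Bmp1, Furin, Serping1 and Serpinh1, for example) were chosen after their values were seen. Some items that the rule names are not reported here. Sequences came from RefSeq (GRCm38.p6) and GENCODE M21, a build other than mm9, and serve only for sequence, names and neighbours. Figures used matplotlib 3.10.9.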

Additional observations from a re-analysis of the deposited data

How the results depend on the processing

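The rise of Adamts2 passed in 9 of the 10 alternatives that kept all aortas. With the replicate number as a block it was 1.03 and did not pass (adjusted p = 0.441), nor did any of the 6 called partner genes (adjusted p from 0.198 to 0.484). With 1 aorta left out it lay between 1.06 and 1.44 and passed only without Sirt2-KO replicate 4, so between 0 and 1 members were called, and 0 with the block. The numbers 4 and 8 occur in both groups, and the labels do not say whether same-numbered aortas share more than the number. Their deviations from the group means correlated at -0.05 and -0.45 over the tested genes. So few pairs cannot decide whether a block is needed. The direction of Adamts4 turned with the block (-0.0840) and without WT replicate 2 (-0.00450, range to 0.913), and it had no value with a minimum mean of 5 FPKM. The other 6 genes kept their direction and did not pass in any of 16 alternatives, with a smallest adjusted p of 0.0655 (Plau, arrayWeights). Over all genes 250 were called, 197 higher and 53 lower. There were 1114 calls (706 higher, 408 lower) with arrayWeights, 151 (122 and 29) with the highest row per gene, and 3 (1 and 2) with the block. With 1 aorta left out there were 28 to 344 calls, 20 to 248 higher and 7 to 96 lower. The ratio of activators to Serpine2 changed sign without WT replicate 8 (-0.0451), Sirt2-KO replicate 7 (-0.0600) or Sirt2-KO replicate 8 (-0.0842, range to 0.354), as did Adamts2 over Col1a1 without WT replicate 2 (-0.0217, range to 0.4846). The other 4 ratios kept their direction in all 9 alternatives. The cause of these changes was not tested. Depth is unknown, so the counting error behind values near 1 FPKM, such as those of Adamts4, cannot be given.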
